A study of Mus musculus with 12 samples.

Results

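The genes described here encode heat shock proteins and the factor that switches them on. The list held 10 genes: Hspa1a, Hspa1b, Hspa8, Hsp90aa1, Hsp90ab1, Hsph1, Dnajb1, Hspd1, Hspe1 and Hsf1. They were listed by name for their place in the cytosolic and mitochondrial heat shock system, and the list sets the inducible pair Hspa1a and Hspa1b against the rest. The genes were chosen with earlier results of these data known, so the counts and shares given for them are descriptive. Of these 10, 8 were matched to a named probe set, among 24675 named genes in all. Hsp90ab1 and Hsf1 were not matched to a named probe set and were not analysed here.

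Heat shock proteins are chaperones that bind unfolded proteins and help them to fold, to refold after damage or to reach degradation. Under heat and other protein-damaging stress the transcription factor HSF1 is released from chaperones, forms trimers and binds heat shock elements, which are inverted repeats of a short unit in the promoters of its target genes. Some chaperone genes, such as Hspa8, are highly expressed in unstressed cells, whereas Hspa1a and Hspa1b are known for low basal and strongly inducible transcription.

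Gene expression was measured on 12 Affymetrix whole-transcript arrays of mouse bone marrow-derived macrophages, primary cells grown for 7 days from the marrow of WT mice aged 8 to 10 weeks, whose strain the labels do not name. The 4 groups of 3 arrays were cells given hepcidin for 3 h, cells labelled PBS at 3 h, cells given hepcidin for 1 h and cells labelled PBS at 1 h. Hepcidin, a liver hormone, controls iron export from cells, and PBS is the buffer control. All groups share the growth in L cell-conditioned medium, which supplies M-CSF, and, per the growth protocol, a change to DMEM alone for 1 h before the peptide. The labels give the peptide at 1 µg/ml in one protocol and at 10 µg/ml in another, so the dose is not settled. Separate animals or cultures within a group are not stated in any label, and the p-values therefore speak only of the scatter among these arrays, which could be technical.

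The values are log2 expression values, and the median of an array lay between 4.84 and 4.94. All 9 named macrophage markers lay above the array median, from Mertk at 8.72 to Cd68 at 12.99, and their mean over the list lay between 10.79 and 10.97 on every array. With hepcidin at 3 h 4 of the 9 passed (44.4%, where 5.33% of all genes did): Cd14 (log2 change 0.80) and Spi1 (0.30) were higher, and Mertk (-1.08) and Mrc1 (-0.35) lower. At 1 h limma called 0 of the 9. The part of such changes in the results below was not tested. None of the markers of neutrophils (10), dendritic cells (8), lymphocytes (7), stroma (8) and erythroid cells (5) passed with hepcidin at 3 h or 1 h. Of these lists, 4 neutrophil and 3 stromal markers lay above the array median. In whole cultures, fewer cells of a type and less RNA per cell cannot be told apart.

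**Figure D1:**
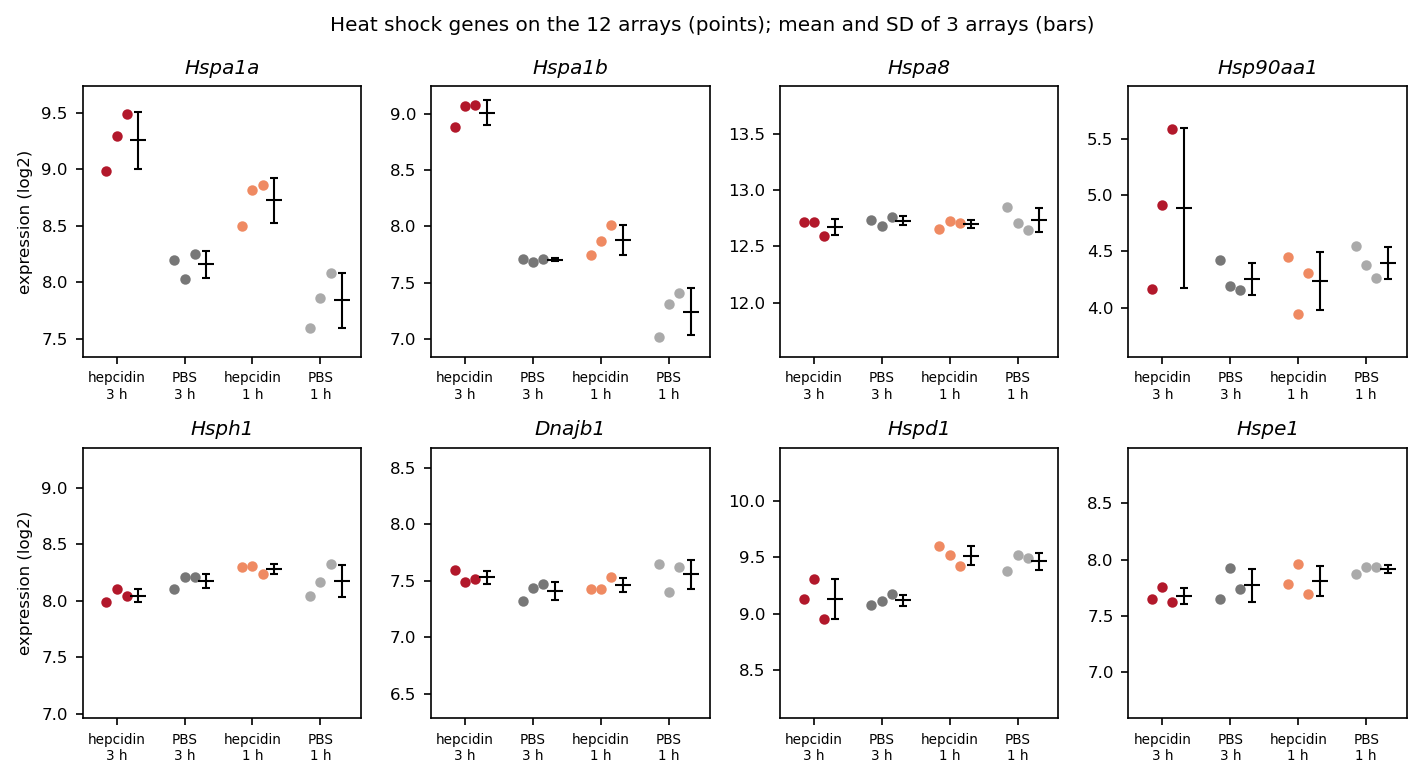
Expression (log2, vertical axis) of the 8 heat shock genes on each array, for hepcidin and PBS at 3 h and at 1 h; bars give the mean and SD of 3 arrays, and every panel spans the same height on the log2 scale. The hepcidin arrays stand above the PBS arrays of the same time for Hspa1a and Hspa1b, whereas the arrays of Hspa8, Hsph1, Dnajb1 and Hspe1 span 0.26 to 0.33 over all 12 arrays.

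Hspa1a and Hspa1b, the genes of stress-inducible cytosolic HSP70, rose with hepcidin at both times, and the other 6 genes did not pass the test against PBS at either time. Of these 6, Hsp90aa1 had a dim probe set with a mean of 4.44, so its lack of a call says little about the gene. Passing means an adjusted p under 0.05 in limma, with p-values adjusted over all 24675 genes. At 3 h 2 of 8 heat shock genes passed, both higher, where 5.33% of all genes passed, 2.8% higher and 2.53% lower. At 1 h the same 2 of 8 passed, both higher, where 0.559% of all genes passed, 0.527% higher and 0.0324% lower. The count of all genes at 3 h, 1316, was 851 without PBS 3 h replicate 2 and 837 without PBS 3 h replicate 3.

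At 3 h Hspa1b (Entrez gene 15511) stood at 8.88, 9.07 and 9.07 on the log2 scale with hepcidin, against 7.71, 7.69 and 7.71 with PBS. The groups lay more than 1 log2 unit apart, and the PBS arrays were nearly equal. The rise was 2.47-fold (log2 change 1.30, SE 0.10, 95% interval 1.08 to 1.53, adjusted p = 7.89e-06). Hspa1a (Entrez gene 193740) stood at 8.98, 9.30 and 9.49 with hepcidin, against 8.20, 8.02 and 8.25 with PBS. Its lowest hepcidin array was above its highest PBS array, and the rise was 2.14-fold (log2 change 1.10, SE 0.15, 95% interval 0.77 to 1.42, adjusted p = 7.07e-04). Both calls at 3 h held with each array left out in turn, with adjusted p-values up to 0.00511 for Hspa1a and 1.01e-04 for Hspa1b.

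At 1 h Hspa1a stood at 8.49, 8.81 and 8.86 with hepcidin, against 7.59, 7.86 and 8.08 with PBS. Hspa1b stood at 7.74, 7.87 and 8.01 with hepcidin, against 7.02, 7.31 and 7.41 with PBS. In neither gene did the groups overlap. The rise of Hspa1a was 1.84-fold, a log2 change of 0.88 (SE 0.15, adjusted p = 0.0162). That of Hspa1b was 1.55-fold, a log2 change of 0.63 (SE 0.10, adjusted p = 0.0133). These calls at 1 h did not hold with each array left out in turn, which also leaves fewer arrays in the fit. Leaving out hepcidin 1 h replicate 2 gave an adjusted p of 0.10 for Hspa1a and 0.0667 for Hspa1b. Leaving out replicate 3 of the same group gave 0.0937 for Hspa1a and 0.0783 for Hspa1b. The call of Hspa1a was also lost without PBS 1 h replicate 1 (adjusted p = 0.0956) or PBS 1 h replicate 2 (adjusted p = 0.0719), while the log2 changes of both genes stayed between 0.52 and 1.00. With only the hepcidin and PBS arrays of 1 h in the fit, neither gene passed (adjusted p = 0.0606 for Hspa1a and 0.121 for Hspa1b).

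The rank of the pair among all genes was high at both times. At 3 h 0.308% of genes had a larger log2 change than Hspa1b and 0.426% a larger one than Hspa1a, and at 1 h these shares were 0.490% and 0.263%. The effect of hepcidin on Hspa1b was larger at 3 h than at 1 h by 0.67 on the log2 scale (SE 0.15, 95% interval 0.35 to 0.99), but this difference did not pass over all genes (adjusted p = 0.0554), where 1.03% of genes passed. It passed with the replicate number as a block (adjusted p = 0.0196) and with a trended and robust prior (0.0202). It also passed among genes above the median mean (0.0270), after a second quantile normalization (0.0424) and without PBS 1 h replicate 1 (0.0205). Under 12 of the 17 alternatives that applied it did not pass, with adjusted p-values up to 0.143. For Hspa1a the same difference was 0.21 (SE 0.21, 95% interval -0.25 to 0.68, adjusted p = 0.805). Whether the 2 genes differ from each other in this was not tested.

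The pair was also compared between times. With hepcidin, Hspa1b was 2.19-fold higher at 3 h than at 1 h (log2 change 1.13, SE 0.10, adjusted p = 5.91e-05), while the log2 change of Hspa1a was 0.53 (SE 0.15, adjusted p = 0.0677). The arrays of the 2 times did not overlap in either gene. Hspa1a passed here with the replicate number as a block (adjusted p = 0.0118). Without hepcidin 3 h replicate 1 it passed at a log2 change of 0.67 (adjusted p = 0.0305). It also passed with a trended and robust prior (0.0372) and among genes above the median mean (0.0381). Under 14 of 18 alternatives it did not pass, with adjusted p-values up to 0.240. With PBS, the log2 change at 3 h over 1 h was 0.46 for Hspa1b (SE 0.10, adjusted p = 0.0919) and 0.32 for Hspa1a (SE 0.15, adjusted p = 0.489). All 3 PBS arrays of 3 h lay above those of 1 h for Hspa1b, and the times overlapped for Hspa1a. Hspa1a averaged 9.26 ± 0.25 with hepcidin and 8.16 ± 0.12 with PBS at 3 h, and 8.72 ± 0.20 with hepcidin and 7.84 ± 0.24 with PBS at 1 h (SD, n = 3 each). Hspa1b averaged 9.01 ± 0.11 with hepcidin and 7.70 ± 0.013 with PBS at 3 h, and 7.88 ± 0.13 with hepcidin and 7.24 ± 0.21 with PBS at 1 h (SD, n = 3 each). Of all 4 group means, that of hepcidin at 3 h was highest for both genes and that of PBS at 1 h was lowest.

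Hspa1a and Hspa1b encode nearly the same protein from neighbouring genes. How far the 2 probe sets share probes was not tested, so their values are uncertain as separate measures. The promoters of the pair are shown because these 2 genes moved together. Each sequence below is the 250 bases before the annotated start, from RefSeq on GRCm38.p6, read 5′ to 3′ on the strand of the gene. Capitals mark matches to a heat shock element of 2 units, GAANNTTC or TTCNNGAA, each of which reads the same on both strands.
Hspa1a (chr17:34972157-34972406, minus strand): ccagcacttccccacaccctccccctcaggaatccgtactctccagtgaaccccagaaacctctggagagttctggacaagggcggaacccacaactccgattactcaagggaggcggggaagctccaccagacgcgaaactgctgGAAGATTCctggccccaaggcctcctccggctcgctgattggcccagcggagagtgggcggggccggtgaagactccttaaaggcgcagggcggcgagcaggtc
Hspa1b (chr17:34959239-34959488, minus strand): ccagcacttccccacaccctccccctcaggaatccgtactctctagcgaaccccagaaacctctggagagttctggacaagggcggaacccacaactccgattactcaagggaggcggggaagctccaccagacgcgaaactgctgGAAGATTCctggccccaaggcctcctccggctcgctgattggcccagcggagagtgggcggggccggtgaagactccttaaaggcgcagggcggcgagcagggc
The windows were identical at 247 of 250 positions (98.8%). The 3 differences of Hspa1b from Hspa1a, counted from 1 at the 5′ end of the window, were C44T, T47C and T249G. Both held the same single match, GAAGATTC, 104 to 97 bases before the start, with a CCAAT box read on the opposite strand between it and the start. Of 27025 promoters of the same length, 12.9% held a match of 2 units and 34.5% a CCAAT box on either strand. Only exact letters were searched, so elements with a changed letter in a unit were not counted.

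Promoters were matched for 6 of the 10 listed genes, the pair among them. Of the other 4, those of Hsph1 and Hspe1 are shown because they hold matches to the heat shock element, although neither gene passed against PBS. Hsph1 encodes an HSP110 protein that exchanges nucleotide on HSP70, and Hspe1 encodes the co-chaperonin of the mitochondrial chaperonin encoded by Hspd1.
Hsph1 (chr5:149636337-149636586, minus strand): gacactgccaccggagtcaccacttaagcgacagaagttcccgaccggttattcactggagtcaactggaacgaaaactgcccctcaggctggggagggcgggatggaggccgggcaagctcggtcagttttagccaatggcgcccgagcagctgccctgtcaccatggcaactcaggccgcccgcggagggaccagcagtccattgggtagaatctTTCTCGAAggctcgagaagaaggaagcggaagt
Hspe1 (chr1:55087898-55088147, plus strand): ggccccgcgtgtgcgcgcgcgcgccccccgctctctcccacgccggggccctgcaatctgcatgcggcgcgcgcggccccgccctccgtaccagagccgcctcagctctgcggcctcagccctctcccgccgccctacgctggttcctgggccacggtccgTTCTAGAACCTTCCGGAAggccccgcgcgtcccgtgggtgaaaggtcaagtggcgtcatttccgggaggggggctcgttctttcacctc
Hsph1 held 1 match of 2 units, TTCTCGAA, 33 to 26 bases before the start. Hspe1 held 3 matches of 2 units that overlap in one run, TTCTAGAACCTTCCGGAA, 89 to 72 bases before the start. This run contains 2 overlapping matches to the element of 3 units, GAANNTTCNNGAA on either strand, which 0.4% of promoters held. Hspd1 and Hspe1 are transcribed away from each other, and 285 of the 300 bases of the second of 2 Hspd1 windows, which run to 50 bases past the start, are shared with that of Hspe1. The run lies before the Hspd1 start of that second window. The first Hspd1 window starts elsewhere and shares 4 of 300 bases with that of Hspe1. The first Hspd1 window and both Dnajb1 windows held no match. A match describes letters in a window, not binding.

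**Figure D2:**
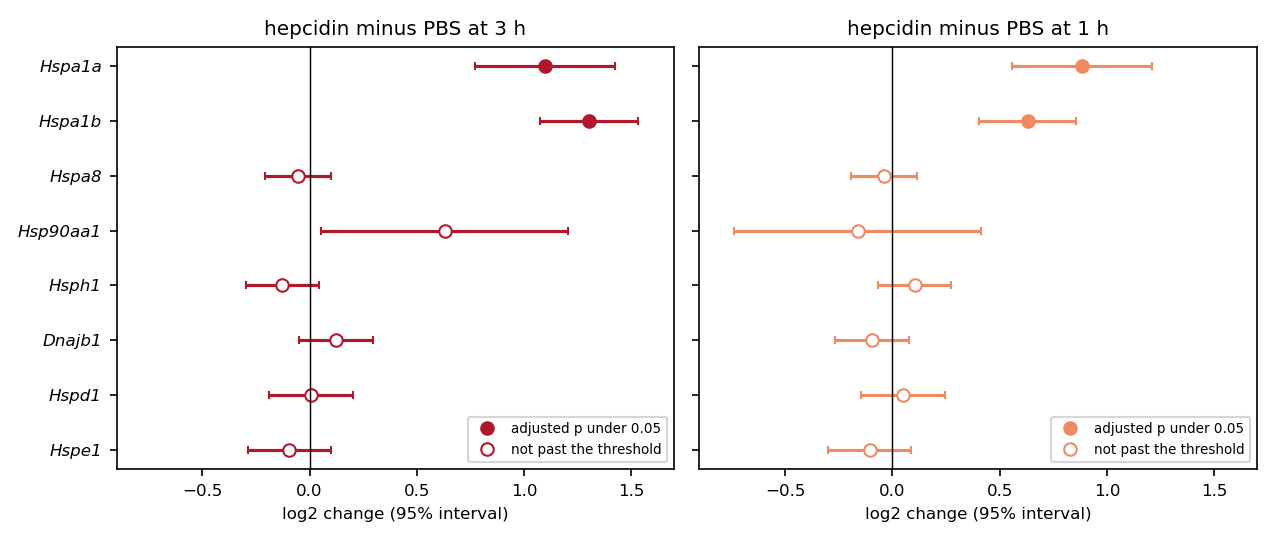
Log2 change with hepcidin minus PBS (horizontal axis) at 3 h and at 1 h for the 8 heat shock genes, with 95% intervals from limma; filled points passed at an adjusted p under 0.05. Hspa1a and Hspa1b stand at 1.10 and 1.30 at 3 h and at 0.88 and 0.63 at 1 h, and the interval of Hsp90aa1 is the widest of the 8 at both times.

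Hspa8 (Entrez gene 15481) encodes the constitutive cytosolic HSP70, which folds new proteins and takes part in clathrin uncoating and chaperone-mediated autophagy. At 3 h it stood at 12.71, 12.72 and 12.59 on the log2 scale with hepcidin, against 12.73, 12.69 and 12.76 with PBS. At 1 h it stood at 12.66, 12.73 and 12.71 with hepcidin, against 12.85, 12.71 and 12.65 with PBS. The groups overlapped at both times. The log2 change was -0.054 at 3 h (95% interval -0.21 to 0.10, adjusted p = 0.768) and -0.039 at 1 h (95% interval -0.19 to 0.12, adjusted p = 0.976).

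Hsph1 (Entrez gene 15505) and Dnajb1 (Entrez gene 81489) encode partners of HSP70, and in heat-shocked cells both are HSF1 targets. Hsph1 at 3 h stood at 7.99, 8.10 and 8.04 with hepcidin, against 8.10, 8.21 and 8.21 with PBS, a log2 change of -0.13 (95% interval -0.30 to 0.04, adjusted p = 0.467). The groups overlapped by 1 array. At 1 h its hepcidin arrays were at 8.30, 8.31 and 8.24, against 8.04, 8.17 and 8.33 with PBS, a log2 change of 0.10 (95% interval -0.07 to 0.27, adjusted p = 0.893). With hepcidin, all Hsph1 arrays of 3 h lay below those of 1 h, by a log2 change of -0.24 (SE 0.08) that did not pass (adjusted p = 0.127).

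Dnajb1, an HSP40 that delivers clients to HSP70 and stimulates its ATPase, stood at 7.59, 7.48 and 7.51 at 3 h with hepcidin, against 7.32, 7.44 and 7.47 with PBS. The groups did not overlap, but the gap was narrow, and the log2 change of 0.12 (95% interval -0.05 to 0.29) did not pass (adjusted p = 0.497). At 3 h 3 of 8 heat shock genes, Hspa1a, Hspa1b and Dnajb1, had groups that did not overlap, as 21.7% of all genes did. At 1 h Dnajb1 stood at 7.43, 7.43 and 7.53 with hepcidin, against 7.64, 7.40 and 7.62 with PBS, and the groups overlapped (log2 change -0.09, adjusted p = 0.913). At that time 2 of 8 genes, the Hspa1 pair, did not overlap, against 12.3% of all genes.

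Hsp90aa1 (Entrez gene 15519) encodes the stress-responsive isoform of cytosolic HSP90, which matures kinases and steroid receptors. Its probe set was dim, with a mean of 4.44 on the log2 scale, below the array medians, so no fold is given. At 3 h it stood at 4.16, 4.91 and 5.58 with hepcidin, against 4.42, 4.19 and 4.15 with PBS. Of the hepcidin arrays, 2 lay above all PBS arrays and replicate 1 lay among them. The log2 change was 0.63 (SE 0.26, 95% interval 0.05 to 1.21, unadjusted p = 0.0345) and did not pass (adjusted p = 0.241). It passed without hepcidin 3 h replicate 1 (log2 change 0.99, adjusted p = 0.0118) and was 0.28 without hepcidin 3 h replicate 3 (adjusted p = 0.619). At 1 h the values were 4.45, 3.95 and 4.31 with hepcidin, against 4.54, 4.38 and 4.27 with PBS, with overlapping groups (log2 change -0.16, 95% interval -0.74 to 0.41, adjusted p = 0.968). With hepcidin at 3 h against 1 h the log2 change was 0.65 (adjusted p = 0.227), and it passed without hepcidin 3 h replicate 1 (1.01, adjusted p = 0.0131). Under 16 of the 17 alternatives that applied it did not pass, with adjusted p-values up to 0.586.

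Of the mitochondrial chaperonin genes, Hspd1 fell between 1 h and 3 h with hepcidin, and neither gene passed against PBS. Hspd1 (Entrez gene 15510) encodes HSP60, the folding chamber of the mitochondrial matrix, and Hspe1 (Entrez gene 15528) its HSP10 lid. At 3 h Hspd1 stood at 9.13, 9.30 and 8.95 with hepcidin, against 9.07, 9.11 and 9.17 with PBS (log2 change 0.0077, 95% interval -0.19 to 0.20, adjusted p = 0.979). At 1 h it stood at 9.60, 9.52 and 9.43 with hepcidin, against 9.38, 9.52 and 9.5 with PBS (log2 change 0.05, adjusted p = 0.977). The groups overlapped at both times, but all 6 arrays of 3 h lay below all 6 arrays of 1 h.

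With hepcidin, Hspd1 fell by 0.39 on the log2 scale at 3 h relative to 1 h (SE 0.09, 95% interval -0.58 to -0.19, adjusted p = 0.0272). With PBS the same change was -0.35 (SE 0.09, 95% interval -0.54 to -0.15) and did not pass (adjusted p = 0.144). The difference between these changes was -0.04 (SE 0.13, adjusted p = 0.953). The call of Hspd1 with hepcidin needed most arrays of both times. At 1 h it was lost without replicate 1 (adjusted p = 0.0917) or replicate 2 (0.0908), at 3 h without replicate 1 (0.0676) or replicate 3 (0.0990). It was also lost with only these 2 groups in the fit (0.127).

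Hspe1 at 3 h stood at 7.65, 7.76 and 7.63 with hepcidin, against 7.65, 7.93 and 7.74 with PBS (log2 change -0.09, 95% interval -0.29 to 0.10, adjusted p = 0.668). At 1 h it stood at 7.78, 7.96 and 7.69 with hepcidin, against 7.87, 7.94 and 7.94 with PBS (log2 change -0.11, 95% interval -0.30 to 0.09, adjusted p = 0.912). The groups overlapped at both times. Over time the log2 change of Hspe1 was -0.13 with hepcidin (adjusted p = 0.511) and -0.15 with PBS (adjusted p = 0.649).

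Across time, 2 of 8 heat shock genes passed with hepcidin at 3 h against 1 h, Hspa1b higher and Hspd1 lower, where 5.05% of all genes passed, 2.44% higher and 2.61% lower. That count over all genes, 1246, was lower when some single hepcidin arrays were left out. Leaving out replicate 2 of 1 h gave 721, replicate 3 of 1 h 763 and replicate 3 of 3 h 803. The arrays of the 2 times did not overlap in 4 of the 8 genes, Hspa1a and Hspa1b higher and Hsph1 and Hspd1 lower, against 20.1% of all genes. With PBS at 3 h against 1 h, limma called 0 of 8, and 2 had an unadjusted p under 0.05, Hspa1b and Hspd1, where 0.45% of all genes passed and 10.6% had such a p. Hspa1b passed in this comparison with the replicate number as a block (adjusted p = 0.0310) and among genes above the median mean (0.0406). It also passed with a trended and robust prior (0.0335), which called Hspd1 as well (0.0479). Under 15 of 18 alternatives Hspa1b did not pass, and under 17 of 18 Hspd1 did not, with adjusted p-values up to 0.260 and 0.365. The comparisons between times use the same arrays as those of hepcidin against PBS.

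The pair was set against the other 6 genes on each array, with each gene first centred on its mean over the 12 arrays. The pair minus the rest stood at 0.82, 0.90 and 0.99 on the log2 scale with hepcidin at 3 h, against -0.17, -0.31 and -0.18 with PBS at 3 h. It stood at -0.16, 0.12 and 0.21 with hepcidin at 1 h, against -0.99, -0.68 and -0.55 with PBS at 1 h. All 3 PBS arrays of 3 h lay below the hepcidin arrays of 1 h and above the PBS arrays of 1 h. The mean change of the pair exceeded that of the other 6 genes by 1.12 at 3 h and by 0.80 at 1 h, with no test, since the genes were chosen with results known. With Hsp90aa1 left out as below the median mean, these differences were 1.23 and 0.77. The median log2 change of the 6 genes was -0.023 at 3 h and -0.067 at 1 h, beside 0.016 and -0.0022 over all genes.

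**Figure D3:**
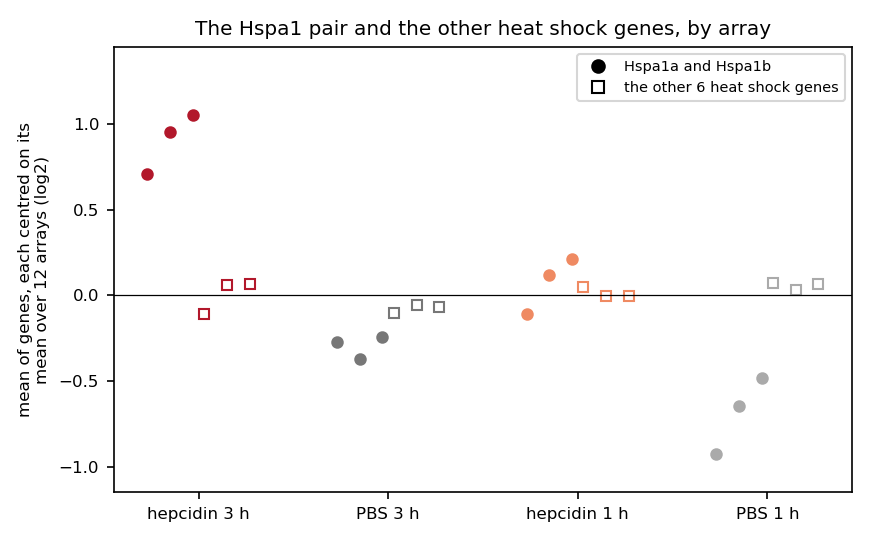
Mean of Hspa1a and Hspa1b (circles) and of the other 6 heat shock genes (squares) on each array, in log2 units after each gene was centred on its mean over 12 arrays. The squares stay between -0.11 and 0.07, whereas the circles run from -0.92 in PBS at 1 h to 1.05 in hepcidin at 3 h.

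The wider chaperone system was described with 9 further lists, which together held 106 genes, 104 of them matched to a named probe set. At 3 h 2 of the 104 rose and 0 fell, or 1.92% beside 5.33% of all genes, and 13 had an unadjusted p under 0.05, as 16.9% of all genes did. At 1 h limma called 0 of 104, with 9 at an unadjusted p under 0.05, where 0.559% of all genes passed and 6.82% had such a p. The median log2 change of the 104 genes was 0.016 at 3 h and 0.017 at 1 h.

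Both genes that rose at 3 h were among 26 DNAJ co-chaperones, which carry clients to HSP70. Dnajb5 stood at 6.44, 6.41 and 6.68 with hepcidin, against 6.15, 5.96 and 6.17 with PBS (1.33-fold, log2 change 0.41, adjusted p = 0.0273). Dnaja2, a general cytosolic HSP40, stood at 9.93, 9.95 and 9.92 with hepcidin, against 9.68, 9.71 and 9.67 with PBS (1.19-fold, log2 change 0.25, adjusted p = 0.0290). The groups did not overlap in either gene. Dnajb5 lost its call without any 1 of PBS 3 h replicates 1, 2 and 3 or hepcidin 3 h replicate 3, and Dnaja2 without any 1 of the 6 arrays of 3 h, with adjusted p-values up to 0.123 and 0.109. With only the groups compared in the fit, both calls were also lost (adjusted p = 0.0845 for Dnajb5 and 0.108 for Dnaja2). Dnaja2 lost its call with arrays centred on their median as well (0.0966). Dnajb9, an ER-resident co-chaperone, had a log2 change of -0.37 (adjusted p = 0.050) and did not pass, and the median of the list was 0.013. At 1 h 0 of 26 passed, and 4 had an unadjusted p under 0.05, beside 6.82% of all genes. The lowest p belonged to Dnajc2, a ribosome-associated factor, at -0.19 (adjusted p = 0.640).

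The remaining lists had 0 members past the threshold in limma at both times. Over all genes, 16.9% had an unadjusted p under 0.05 at 3 h and 6.82% at 1 h. Among 18 matched genes of the heat shock response outside the 8, 0 had an unadjusted p under 0.05 at 3 h and 3 had one at 1 h. Their median was 0.011 at 3 h and -0.022 at 1 h. The list also held the ER chaperone gene Hspa5, so it is not confined to the cytosolic heat shock response. Bag3, a co-chaperone that heat strongly induces, had a log2 change of -0.039 at 3 h (adjusted p = 0.872) and of 0.15 at 1 h (adjusted p = 0.816). The lowest p in this list was that of Stip1, which links HSP70 to HSP90, at 3 h (0.13, adjusted p = 0.398) and that of Ier5 at 1 h (0.25, adjusted p = 0.410).

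Among 24 co-chaperones of HSP70 and HSP90, 3 had an unadjusted p under 0.05 at 3 h and 0 at 1 h. For this and the following lists, the shares of all genes were 16.9% at 3 h and 6.82% at 1 h. The lowest p at 3 h was that of the cyclophilin gene Ppid, at 0.40 (SE 0.11, adjusted p = 0.0544), and at 1 h that of Bag3. Of 14 genes of mitochondrial proteostasis, 4 had an unadjusted p under 0.05 at 3 h and 1 at 1 h, led by the protease genes Clpp at 3 h (0.27, adjusted p = 0.0804) and Htra2 at 1 h (0.20, adjusted p = 0.644). Of 11 other HSP70 family genes, 0 had such a p at 3 h and 1 at 1 h, Hspa13 (0.19, adjusted p = 0.722), which also had the lowest p at 3 h (0.16, adjusted p = 0.361). The ER chaperone gene Hspa5 had log2 changes of 0.019 at 3 h and 0.029 at 1 h. Of 9 small heat shock protein genes 0 had one at 3 h and 1 at 1 h, Hspb6 (0.27, adjusted p = 0.662), and the lowest p at 3 h was that of Hspb3 (0.17, adjusted p = 0.384).

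The 9 genes of the CCT chaperonin, which folds actin and tubulin, had 1 member at an unadjusted p under 0.05 at 3 h, Cct3 (0.17, adjusted p = 0.192), and 0 at 1 h, where Cct2 had the lowest p (0.17, adjusted p = 0.738). The 6 other heat shock factor genes and the 2 other HSP90 genes had 0 at both times, beside 16.9% and 6.82% of all genes. The lowest p in the first was that of Hsbp1, which encodes a binding protein of heat shock factor, at 3 h (-0.080, adjusted p = 0.644) and of Hsf5 at 1 h (-0.22, adjusted p = 0.738), and in the second that of the ER chaperone gene Hsp90b1 at both times (-0.067 at 3 h and -0.10 at 1 h).

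With hepcidin at 3 h against 1 h, 0 of the 104 genes rose and 4 fell, or 3.85% beside 5.05% of all genes. They are named after their values were seen: Dnajb9 (-0.42, adjusted p = 0.0289), Htra2 (-0.38, adjusted p = 0.0139), the immunophilin gene Fkbp4 (-0.29, adjusted p = 0.0262) and Hspa5 (-0.24, adjusted p = 0.0389). Each lost its call without at least 1 of the arrays of hepcidin at 3 h or 1 h, and Hspa5 without any 1 of them. Of 18 alternatives, 12 lost the call of Hspa5, 7 that of Fkbp4, 5 that of Dnajb9 and 4 that of Htra2. With only the groups compared in the fit each call was also lost (adjusted p from 0.0839 for Htra2 to 0.155 for Hspa5). Fkbp4 (0.0569) and Hspa5 (0.0749) lost theirs after a second quantile normalization as well. With PBS over the same interval the log2 change was -0.24 for Fkbp4 (adjusted p = 0.163), -0.23 for Hspa5 (0.146), -0.15 for Dnajb9 (0.686) and -0.031 for Htra2 (0.953). In limma the difference between the hepcidin and PBS changes passed for 0 of these 4 and had an unadjusted p under 0.05 for 1, Htra2 (-0.35, adjusted p = 0.250), with adjusted p-values up to 0.984 (Hspa5). With PBS at 3 h against 1 h limma called 0 of 104, where 0.45% of all genes passed. An unadjusted p under 0.05 was found for 20 of the 104, beside 10.6% of all genes, and for 10 of the 18 genes of the heat shock response. The median log2 change of the 18 was -0.10, but the 10 went both ways. Dnajb4 (0.40), Hspa4l (0.25), Bag3 (0.22) and Chordc1 (0.21) were higher at 3 h, and the others of the 10 lower, down to Ahsa1 (-0.30). The ER chaperone gene Hspa5 (-0.23) was among the lower ones.

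**Figure D4:**
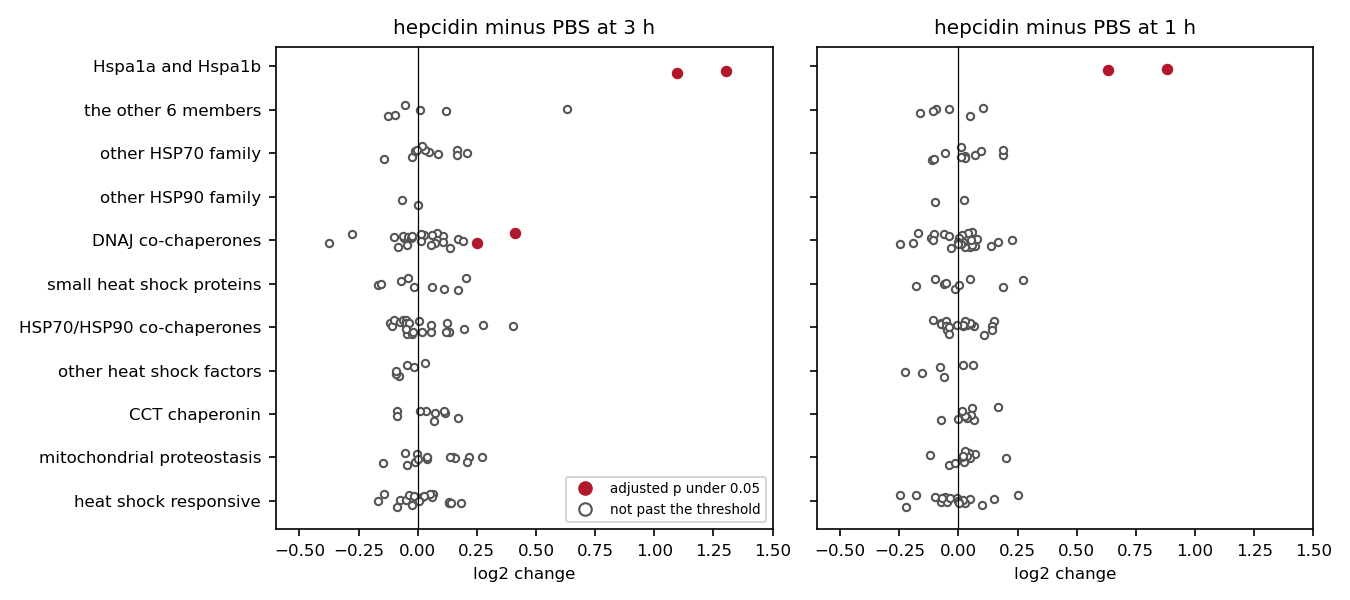
Log2 change with hepcidin minus PBS (horizontal axis) at 3 h and at 1 h for the 8 heat shock genes and the 9 further lists of chaperone genes; each point is a gene, filled where the adjusted p was under 0.05, and a gene in several lists appears in each. Apart from Hspa1a and Hspa1b, the filled points are Dnajb5 at 0.41 and Dnaja2 at 0.25, both at 3 h.

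Genes with the pattern most like the pair were looked up among 11256 named genes above the median mean, without predicted gene models, numbered clones and the heat shock genes themselves, by Pearson's r with the mean of Hspa1a and Hspa1b over the 12 arrays. The arrays fall into 4 groups, so r follows the group means and is given as a measure of likeness only. The 5 nearest were Ets2 (r = 0.977), Nfkb2 (0.976), Riok3 (0.976), Slc11a2 (0.975) and Irak2 (0.975). Ets2, which encodes a transcription factor, had log2 changes of 1.93 at 3 h and 0.88 at 1 h, and Nfkb2, an NF-kB subunit gene, 1.71 and 0.98. Slc11a2, the iron importer gene, had 1.39 and 0.73, Irak2, a kinase gene of Toll-like receptor signalling, 1.18 and 0.59, and the kinase gene Riok3 0.39 and 0.15. The 5 genes nearest to Hsph1 were Yipf1 (r = 0.938), Slc50a1 (0.928), Fkbp8 (0.923), Lrrc20 (0.913) and Nme4 (0.909), with log2 changes from -0.20 to -0.07 at 3 h and from 0.04 to 0.15 at 1 h.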

How the data were processed

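The deposited table holds log2 expression values of 25429 probe sets on 12 arrays, used as the authors deposited them. Per the submitters' processing notes, RMA and Partek were used, with no version or role named. No genome build is given in the sources used. No label writes the log base, and log2 was taken from RMA's usual scale and the range of the values. The platform annotation names 1 gene for each of 24675 probe sets, none has several, and the other 754 were not named or tested.

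A linear model with 4 group means (8 residual and 4.11 prior degrees of freedom) was fitted in R 4.3.3 with limma 3.58.1, and p-values were adjusted by Benjamini and Hochberg over all genes in each of 5 comparisons. The procedure was tested on simulated data. The heat shock genes and the further lists were chosen with earlier results of these data known. Named were all 8 genes, per further list up to 4 members past the threshold at 3 h or 1 h or the lowest p, and the 5 nearest patterns. Bag3, Dnajb4, Dnajb9, Hspa4l, Hspa5, Chordc1, Ahsa1 and Fkbp4 were named after their values had been seen.

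Alternatives were a replicate block, a trended and robust prior, genes above the median mean, 2 other normalizations, only the groups compared, and each array left out. Promoters are RefSeq sequences on GRCm38.p6. With 3 arrays in each group, their number limits the precision.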

Additional observations from a re-analysis of the deposited data

How the results depend on the processing

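The rises of Hspa1a and Hspa1b at 3 h kept direction and call under all 18 alternatives, between 0.98 and 1.23 and between 1.27 and 1.37 on the log2 scale. Their calls at 1 h were lost with only the 2 groups in the fit, leaving 0 heat shock genes. Leaving out 1 array, the heat shock genes called ranged from 0 to 2 at 1 h, 2 to 3 at 3 h, 0 to 0 between PBS times, 1 to 3 between hepcidin times and 0 to 1 for the difference of effects. For all genes these ranges were 99 to 139, 837 to 1287, 23 to 126, 721 to 1178 and 141 to 234. The count of 111 between PBS times was 60 without hepcidin 1 h replicate 2 and 23 to 40 without any 1 of the 6 PBS arrays. The count of 254 for the difference of effects was 141 to 159 without replicate 2 or 3 of PBS at 3 h, hepcidin at 1 h or PBS at 1 h. With only the groups compared, 805 genes passed at 3 h, 7 between PBS times, and 616 between hepcidin times with 1 heat shock gene. Between PBS times 319 genes passed with a trended and robust prior (2 heat shock genes), 333 among genes above the median mean (1) and 64 with arrays centred on their median. For the difference of effects, 433 passed with that prior and 412 above the median mean, with 1 heat shock gene each, and 1 after a second quantile normalization. Without genes below the median mean, Hsp90aa1 among them, the pair minus the rest at 3 h was 1.23.

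Arrays with the same replicate number deviated together with r from 0.0030 to 0.246, over 0.1 in 7 of 12 pairs. The titles place the number after the cell name, as in BMDM_1, but no label says what a number shares. Since not every pair was over 0.1, the main fit did not take the numbers as pairing. That cutoff was a chosen setting and cannot exclude pairing. All 12 values were above 0, and 21 of 24 times an array correlated best with its own number, a hint from the data that a number may mark something shared. With the replicate block 240 genes passed between PBS times, 1 of them a heat shock gene, and 1 heat shock gene passed for the difference of effects. These were Hspa1b in both (adjusted p = 0.0310 and 0.0196), and Hspa1a passed between hepcidin times with the block (0.0118).

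Changes near 0 turned sign, none of them called. After a second quantile normalization Hspa8 was 0.0099 at 3 h and between hepcidin times and 0.037 for the difference of effects, and Hsph1 0.00093 between PBS times. With centred arrays Hspd1 was -0.0038 at 3 h, Hspa8 0.0042 and Hsph1 0.0069 between PBS times, and Hspe1 -0.030 for the difference. Leaving out 1 array, Hspa8 ranged from -0.084 to 0.020 at 1 h, -0.052 to 0.051 between PBS times, -0.044 to 0.018 between hepcidin times and -0.074 to 0.029 for the difference. Hspd1 ranged from -0.081 to 0.096 at 3 h and -0.13 to 0.048 for the difference, Hspe1 from -0.049 to 0.091 for the difference, and Hsph1 from -0.073 to 0.069 between PBS times. The cause of these changes was not tested. Background correction was not rerun, since scanner values were not analysed here.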
